A study of Drosophila melanogaster with 4 samples.

Results

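The regions described are the RPD3 clusters along arm 3R, the right arm of chromosome 3 of Drosophila melanogaster, away from its 2 ends. They were taken from the authors' combined list of enriched clusters by position and width alone: the midpoint had to lie between 2000001 and 26405053 on FlyBase release 5, with the centromere at the low end, and the cluster had to be narrower than 6000 bp. This left 1346 members of the 7386 enriched clusters of the combined list, or 18.2%. Of the 1671 clusters of the whole arm, 201 lay outside the position limits, and 124 of the remaining 1470 were 6000 bp or wider. Those 124 wide clusters and the clusters of the arm's ends are used below only where they touch a result.

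The data are chromatin immunoprecipitation with sequencing (ChIP-seq) of RPD3 from adult head nuclei of the wild-type Oregon-R strain, with the antibody labelled Q3451. There are 4 samples, namely RPD3 ChIP replicates 1 and 2 and an input for each, all of the mixed adult stage. Flies were pooled from population cages on a 22-day adult cycle and heads were separated with sieves. Sex is not given, and the labels do not say whether the replicates came from separate cage populations, so the spread between them may be technical. Each ChIP sample has its own cluster list (5550 clusters in replicate 1 and 5872 in replicate 2), the combined list is the authors' summary of both and not a replicate of its own, and read depth is unknown. Cluster lists hold no expression values, so the head label was not checked against marker genes.

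RPD3 corresponds to the histone deacetylases HDAC1 and HDAC2 of mammals. It removes acetyl groups from histone tails and works in corepressor complexes, among them those of Sin3, NuRD and CoREST, which transcription factors bring to DNA. In mammals such enzymes are found at active genes as well as silent ones. Arm 3R carries well-known developmental gene complexes, among them the Antennapedia and bithorax complexes and the Enhancer of split complex. No release 5 annotation or sequence was used here, so clusters and gaps are given by position, without gene names and without bases.

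The members covered 3.54 Mb, or 14.5% of the 24.4 Mb of interior 3R, while the 124 wide clusters covered a further 1.04 Mb. Member widths ran from 1001 to 5951 bp with a median of 2423 bp, and the middle 50% lay between 1695 and 3372 bp. The width limit cut through a continuous range. The members just under it were 5951, 5951 and 5947 bp wide, with scores of 0.90, 0.49 and 0.79, and the clusters just over it were 6001, 6027 and 6029 bp wide, with scores of 1.01, 0.75 and 1.67. Around the position limits, the nearest clusters were 1966702 to 1968264 outside and 2012208 to 2014080 inside the lower limit, and 26425176 to 26428714 outside and 26387840 to 26390444 inside the upper one. The score is the authors' own value for each cluster. It was taken to be a log2 ratio of ChIP to input, a scale inferred from the values and not named in the headers, and is used only within a list.

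Most members had a counterpart in both replicates, and those found in neither list had a lower median width and score than those found in both. Of the 1346 members, 808 overlapped a cluster of both replicate lists by at least 1 bp, or 60.0% (95% exact Clopper-Pearson interval 57.4 to 62.7, counting error over clusters only). The same share was 57.7% over all combined-list clusters under 6000 bp and 61% over the combined list at any width. The share on 3R was thus near the background and is no result about this arm. A further 122 members were found in replicate 1 alone (9.06%, against 10.3% over all clusters under 6000 bp) and 216 in replicate 2 alone (16.0%, against 14.7%). The remaining 200 were found in neither list (14.9%, against 17.2%).

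The match followed width closely. The median member with counterparts in both lists was 3088 bp wide and scored 0.82, whereas the median member with none was 1176 bp wide and scored 0.35. Members of replicate 1 alone and replicate 2 alone lay between these in width, at 1622 and 1825 bp, with scores of 0.34 and 0.33. Split into 5 equal groups by width, 1 of the 270 narrowest members (1001 to 1507 bp) was in both replicates, against 262 of the 269 widest (3645 to 5951 bp). By score, 25 of the 270 lowest members and 267 of the 269 highest were in both. The rise came mostly between the score group of 0.33 to 0.42, with 19.0% in both, and that of 0.42 to 0.68, with 74.0%. The narrowest cluster in either replicate list was 1301 bp, and 196 members were narrower than that. A wider cluster also meets the 1 bp rule more easily, and its part in these shares was not tested.

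Width and score were tied, but not in the same way over the whole range. Over all members Spearman's rho of width and score was 0.745, a correlation across clusters that share libraries. Below 2000 bp, a split chosen after the plot was seen, 464 members gave a rho of -0.427: scores were lower in the wider of these. From 2000 bp up, 882 members gave 0.483. Among the narrow ones 6.03% were in both replicates, and among the wider ones 88.4%. These shares were 7.32% and 85.1% on interior 2L and 7.21% and 86.0% on 3L, so they are no result about 3R. The downward part was seen in the combined list, while rho was close to 0 in the replicates: in clusters under 2000 bp on interior 3R it was -0.067 in replicate 1 and 0.082 in replicate 2. The width ranges differ, since the replicate lists hold no cluster under 1301 bp and 196 members were narrower than that. The lists are thus not compared over like widths. In the combined list rho under 2000 bp was -0.421 on interior 2L and -0.454 on 3L, so 3R did not stand apart in it.

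**Figure D1:**
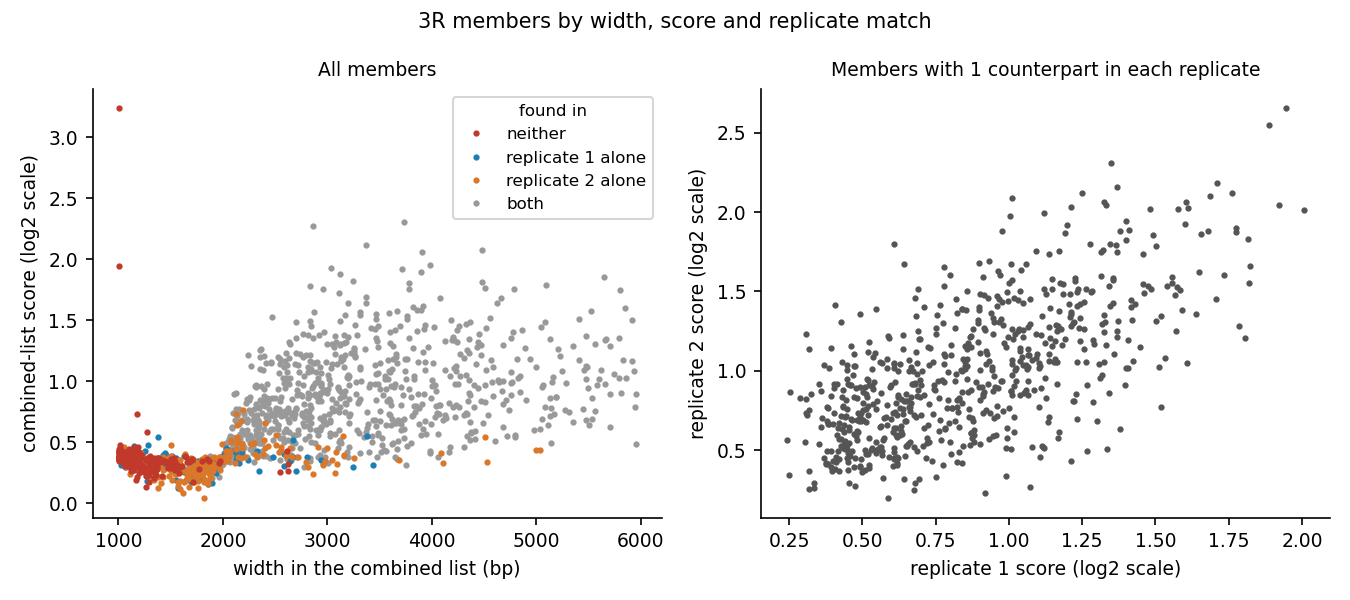
The left panel plots combined-list score (log2 scale) against width (bp) for each of the 1346 members, coloured by the replicate lists in which it was found; the right panel plots replicate 2 score against replicate 1 score for the 689 members with 1 counterpart in each. Members found in neither list crowd at the narrow end, apart from a pair of high points at about 1000 bp, and the replicate scores rise together with wide scatter.

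Where both replicates had a counterpart, the extents were close. In all, 689 members had exactly 1 counterpart in each list that met no other member. Between the replicates their starts differed by a median of 222 bp (middle 50% 81 to 461 bp) and their ends by 203 bp (87 to 452 bp). The part covered in both was a median of 81.8% of the length covered in either. Replicate 1 had the wider cluster in 322 of these, or 46.7%. Spearman's rho between the replicates over these pairs was 0.630 for scores and 0.604 for widths. Few members met several clusters of a replicate: 32 of the 808 members met more than 1 cluster of replicate 1 and 26 more than 1 of replicate 2, with at most 3. The reverse, a replicate cluster that met more than 1 member, was not counted. Members that shared a replicate cluster in this way are also outside the 689.

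By the same position and width limits, the replicate lists held 1019 clusters in replicate 1 and 1177 in replicate 2 on interior 3R. Of these, 866 (85.0%) and 951 (80.8%) overlapped a cluster of the other replicate. The combined list held nearly all of them in some form. Replicate 1 had 46 clusters with no combined counterpart, with scores up to 0.69, and replicate 2 had 5, with scores up to 0.56. Another 95 and 131 met only a combined cluster of 6000 bp or wider.

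Clusters on 3R were about as dense as on 2L and 3L. The members came to 55.2 per Mb, against 54.8 per Mb on interior 2L and 3L pooled, where the same lengths were left out at both ends. Replicate 1 had 41.8 clusters per Mb on 3R and 41.0 on 2L and 3L, and replicate 2 had 48.2 and 45.7. The ratio was 1.04 ± 0.026 (SD, n = 2), above 1 in both replicates, at 1.02 and 1.06, and 1.01 in the combined list. Without combined clusters narrower than 1301 bp it was 0.991. Taken singly in the combined list, 2L had 53.0 per Mb and 3L had 56.4 per Mb, above 3R. Interior 3R averaged 45.0 ± 4.58 clusters per Mb over the replicates, against 53.9 ± 3.85 on 2R and 43.5 ± 1.08 on X (SD, n = 2 each). No test was run on these differences, since an exact two-sided sign-flip test over 2 samples cannot give a p below 0.5. The SD of 4.58 includes the higher density of replicate 2, seen on every arm, so it does not measure the spread of a difference between arms. Within replicate 1 the density was 41.8 per Mb on 3R, against 40.1 on 2L, 41.8 on 3L and 42.8 on X. Within replicate 2 it was 48.2, against 44.5, 46.8 and 44.3.

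Members on 3R were slightly wider than those of 2L and 3L in every list. The medians were 2423 bp on 3R and 2319 bp on 2L and 3L in the combined list, 2479 and 2390 bp in replicate 1, and 2505 and 2439 bp in replicate 2. Taken singly in the combined list, 2L had 2391 bp and 3L had 2273 bp. On X the median was 2381 bp in the combined list, 2635 bp in replicate 1 and 2466.5 bp in replicate 2, so 3R was not the widest arm in every list. The replicate difference was 77.5 ± 16.3 bp (SD, n = 2). Median scores were higher on 3R by 0.03 in the combined list, 0.01 in replicate 1 and 0.03 in replicate 2, or 0.02 ± 0.01 over the replicates (SD, n = 2). Taken singly in the combined list, the median score was 0.517 on 2L and 0.482 on 3L, against 0.523 on 3R. On X it was above that of 3R in every list, at 0.606 in the combined list, 0.865 in replicate 1 and 0.922 in replicate 2. The difference in width was 5 bp among members in the better-scoring 50% of the combined list. None of these differences was tested.

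**Figure D2:**
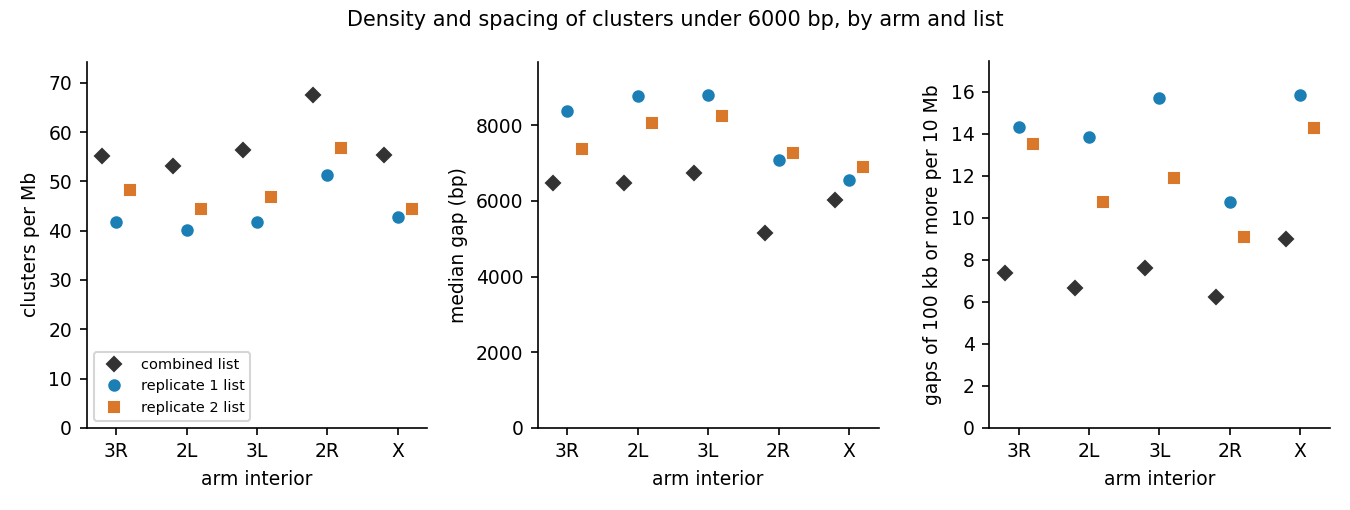
Clusters per Mb, the median gap between neighbouring clusters in bp, and the number of gaps of 100 kb or more per 10 Mb are plotted for the interiors of 3R, 2L, 3L, 2R and X, with a point for each of the 3 lists. On 3R the replicate densities were 41.8 and 48.2 per Mb, below those of 2R (51.2 and 56.7) and near those of 2L, 3L and X.

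Spacing along 3R was uneven. From the end of one member to the start of the next, the gap had a median of 6469 bp, with the middle 50% between 1757 and 19495 bp and a maximum of 216389 bp. Of the 1345 gaps, 45.0% were 5 kb or less and 17.1% were under 1 kb. These shares were 44.4% and 16.3% on 2L, 42.3% and 16.9% on 3L, 49.9% and 18.8% on 2R, and 45.4% and 17.7% on X. They are thus no result about 3R. The standard deviation of the gaps was 1.49 times their mean, against 1.49 on 2L and 1.48 on 3L, so the unevenness was of similar size on these arms. The median gap was 8366 bp in replicate 1 and 7381 bp in replicate 2, and these lists hold fewer clusters. A single pair of members touched, 5251110 to 5253130 and 5253130 to 5257302, which share 1 base.

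Long empty stretches, called deserts here when the gap was 100 kb or more, numbered 18. That was 1.34% of the gaps, against 1.29% of the 5802 gaps on the interiors of the 5 large arms, so their frequency was near the background. They ran from 103243 to 216389 bp with a median of 120310 bp and took up 2.37 Mb, or 9.70% of interior 3R. There were 10 in the centromere-side 12.2 Mb and 8 in the telomere-side 12.2 Mb.

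The longest desert, from 17960961 to 18177349, was free of clusters of any width in all 3 lists over its whole 216389 bp. On its low side it began at a member of 3047 bp with a score of 1.31, and on its high side it ended at a member of 1749 bp with a score of 0.27. The next ran from 19212991 to 19382263 (169273 bp), and 169229 bp of it were free in all lists. The third, from 6242895 to 6397459 (154565 bp), was free throughout, and the fourth, from 10731085 to 10879255 (148171 bp), was free over 148155 bp. The fifth, from 21162389 to 21306551 (144163 bp), differed from these. It held a combined cluster of 6000 bp or wider and 2 clusters of each replicate, with scores up to 1.69, all near its high end, which left 134718 bp free.

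The same deserts appeared when wide clusters and the replicate lists were counted in. Counted over clusters of any width in all 3 lists at once, an alternative chosen after the data were seen, there were again 18 stretches of 100 kb or more, from 103237 to 216389 bp, 1 inside each of the 18 deserts. Of the 18 deserts, 16 held no cluster midpoint of any list, and 1 more, from 23264153 to 23383523, held a single replicate 1 cluster with a score of 0.47. The combined list was made from the replicates, so this is no separate support. The replicate lists alone had more deserts, 35 in replicate 1 and 33 in replicate 2, or 13.9 ± 0.579 per 10 Mb (SD, n = 2). Of these, 18 in each list met a desert of the combined list (51.4% and 54.5%), and all 18 combined deserts were met by both. The longest in replicate 1 was 261446 bp and the longest in replicate 2 was 216410 bp.

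Members at the edge of a desert had medians close to those of the others. The 36 members that flank the 18 deserts had a median score of 0.53 and a median width of 2337 bp, against 0.52 and 2424 bp for the remaining members. In both replicates were 22 of the 36 (61.1%), against 60.0% of the rest.

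**Figure D3:**
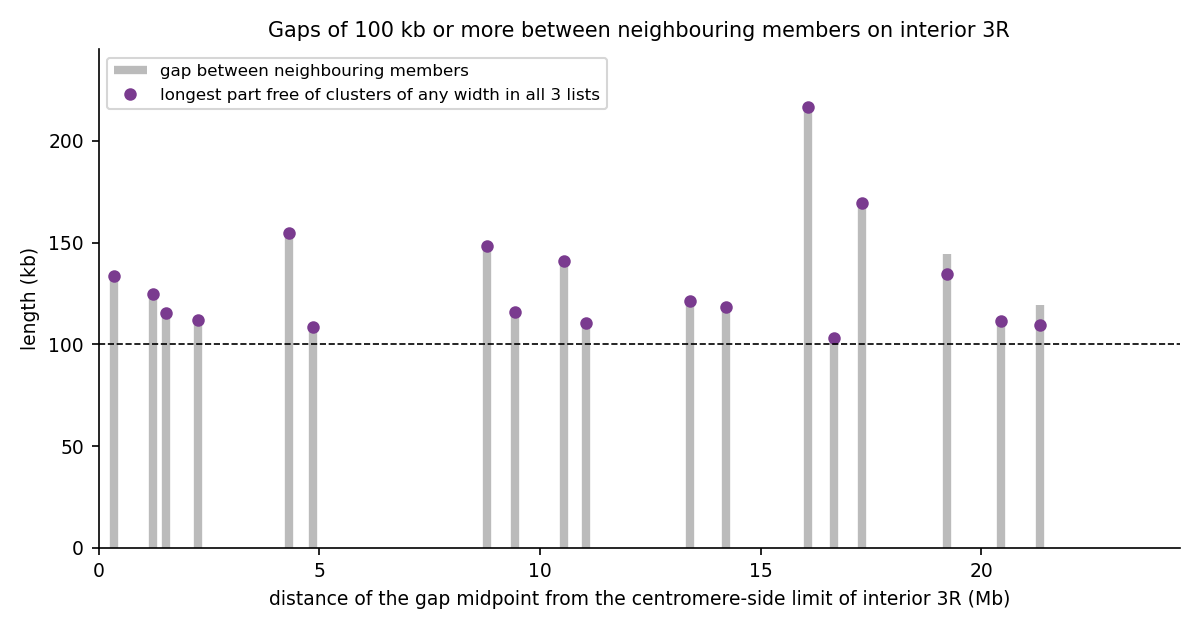
Each grey bar is 1 of the 18 gaps of 100 kb or more, placed by the distance of its midpoint from the centromere-side limit (Mb) and drawn to its length (kb); each purple point is the longest part of that gap free of clusters of any width in all 3 lists. All 18 points lie above the dashed line at 100 kb, from 103237 to 216389 bp, and 2 lie clearly below the top of their bar.

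Crowded stretches were short. With neighbours joined into a run wherever the gap was 5 kb or less, the 1346 members formed 741 runs, of which 431 were a single member (32.0% of members). In 33 runs there were 5 or more members, 197 in all (14.6%). By the definition of a dense block, 10 or more members in a run, there was 1. It held 12 members from 24851802 to 24900684 (48883 bp), which covered 65.0% of that length, with scores from 0.19 to 1.45. Replicate 1 had 9 clusters there and replicate 2 had 8, and 6 of the 12 members were in both. Under the same rule neither replicate list had a block (0 in each), and the longest run in each was 8. The block was also lost when members under 500 bp apart were joined, or when clusters under 1301 bp were left out, while 4 blocks were counted with the wide clusters kept.

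The runs that followed did not reach the block size. The longest of them held 9 members from 6674672 to 6709298, with 8 clusters in replicate 1 and 7 in replicate 2, and 7 of its members were in both. The next, of 8 members from 2228172 to 2262214, matched less well, with 2 clusters in replicate 1, 6 in replicate 2 and 2 members in both. Its median score was 0.32, against 0.88 in the run of 9.

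By 500 kb window, counted from the centromere-side limit, the member count ranged from 14 to 43 over 48 full windows, with a median of 28 and a mean of 27.7 ± 8.18 (SD over windows). The variance was 2.42 times the mean, 2.66 times in replicate 1 and 2.27 times in replicate 2. It was 2.47 ± 0.275 on 3R over the replicates, against 2.36 ± 0.258 on 2L and 2.74 ± 0.33 on 3L (SD, n = 2 each), so the windows varied about as much on these arms. The replicates ranked the windows alike, with Spearman's rho of 0.790 between their counts over the 48 windows, which share most of their clusters. Replicate 2 had more clusters in 33 windows, replicate 1 in 11, and 4 were equal. The largest difference was 11 clusters, in 3 windows.

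The fullest windows lay in separate places along the arm. The window from 5500001 to 6000000 had 43 members, with 40 clusters in replicate 1 and 34 in replicate 2. Its neighbour on the low side, from 5000001 to 5500000, had 41 members, with 34 clusters in replicate 1 and 42 in replicate 2. Together these windows held 84 members in 1 Mb, and 10 wide clusters besides. Another 43 members lay between 25500001 and 26000000, with 29 clusters in replicate 1 and 37 in replicate 2. The window from 19500001 to 20000000 had 42 members (37 and 38 clusters in replicates 1 and 2), and it opened a dense 1.5 Mb that held 116 members, or 77.3 per Mb, with 67.3 per Mb in replicate 1 and 68.0 in replicate 2. In the window from 12000001 to 12500000 there were 41 members, with 29 clusters in replicate 1 and 40 in replicate 2, one of the 3 windows where the replicates were 11 apart. In replicate 2 these 5 windows were among the 6 fullest, with the window from 16500001 to 17000000 tied at 34 clusters for the fifth place, and in replicate 1 all 5 were among the 8 fullest.

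Of the 5 emptiest windows, 2 were also among the lowest 5 of both replicates. The window from 24000001 to 24500000 had 14 members, with 12 clusters in replicate 1 and 13 in replicate 2. From 22000001 to 22500000 there were 15 members, with 6 clusters in replicate 1 and 10 in replicate 2, the lowest count of any full window in each. Of these 15 members, 5 were in both replicates (33.3%), the lowest share of any full window. The window from 4000001 to 4500000 also had 15 members (15 and 19 clusters in replicates 1 and 2), and it held 6 wide clusters, close to the highest number of 7. The windows from 3000001 to 3500000 and from 13000001 to 13500000 had 16 and 17 members, with 15 clusters each in replicate 1 and 15 and 19 in replicate 2. The first 1.5 Mb next to the centromere-side limit had 36.7 members per Mb, with 28.7 per Mb in replicate 1 and 28.0 in replicate 2.

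Over the arm as a whole the members were evenly divided in number. The centromere-side 12.2 Mb had 669 members and the telomere-side 12.2 Mb had 677, a ratio of 0.988. It was 1.03 in replicate 1 and 0.995 in replicate 2, or 1.01 ± 0.025 (SD, n = 2). Over the windows, Spearman's rho of position with member count was 0.070. With median width it was 0.266 and with median score 0.177. Median scores of the centromere and telomere sides were 0.50 and 0.55 in the combined list. They were 0.72 and 0.74 in replicate 1 and 0.76 and 0.88 in replicate 2. Median widths were 2351 and 2509 bp, 2470 and 2488 bp, and 2410 and 2573.5 bp in the same lists. These differences were not tested. Neighbouring windows were weakly alike in count, with rho of 0.178 for members, 0.206 in replicate 1 and 0.254 in replicate 2 over 47 neighbouring pairs.

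**Figure D4:**
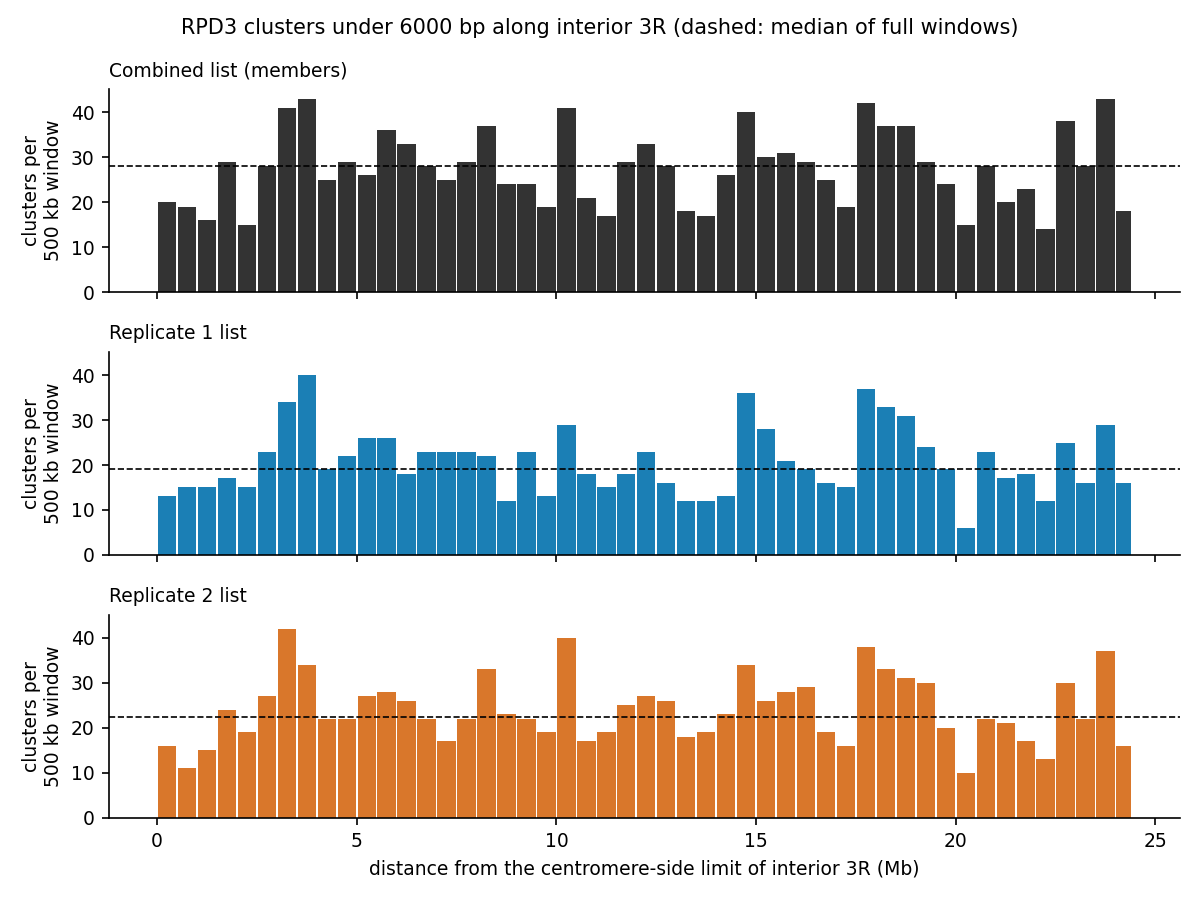
Bars give the number of clusters under 6000 bp in each 500 kb window (the last bar covers 405053 bp) by distance from the centromere-side limit (Mb), in the combined list, replicate 1 and replicate 2, with a dashed line at the median of full windows (28, 19 and 22.5). Mostly the same windows stand high and low in the 3 lists, with 40 clusters in the fullest window of replicate 1 and 42 in that of replicate 2.

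Width and score varied along the arm with little relation to the number of clusters. The median member width of a window ran from 2017 to 3021 bp and the median score from 0.38 to 0.77. Across the 48 windows, rho with the member count was 0.047 for the median score and 0.057 for the median width. For score it was -0.051 in replicate 1 and 0.209 in replicate 2. With 1 Mb windows rho with the score was 0.355 in the combined list, so its size depends on the window. The median scores of the windows were less alike between replicates than the counts, with rho of 0.331, and those of the widths gave 0.414. Windows with more members tended to have more clusters of 6000 bp or wider, with rho of 0.381.

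The highest median score in the combined list, 0.77, was that of the window from 5500001 to 6000000, one of the pair with 43 members. Its medians of 0.84 in replicate 1 and 1.01 in replicate 2 were not the highest there: in replicate 1 the highest was in the window from 11500001 to 12000000, and in replicate 2 it was 1.05 in that from 25500001 to 26000000. It was followed by windows of the telomere side: from 20000001 to 20500000 the median was also 0.77, and from 23000001 to 23500000 it was 0.76, with the widest members of any window (3021 bp). The lowest median, 0.38, was that of the window from 2500001 to 3000000, which also had the narrowest members (2017 bp) and 36.8% of them in both replicates. By its own lists this window had medians of 0.67 and 0.61, while the window from 22000001 to 22500000, also at 0.38 in the combined list, had 0.93 in replicate 1 and 0.70 in replicate 2 from few clusters.

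**Figure D5:**
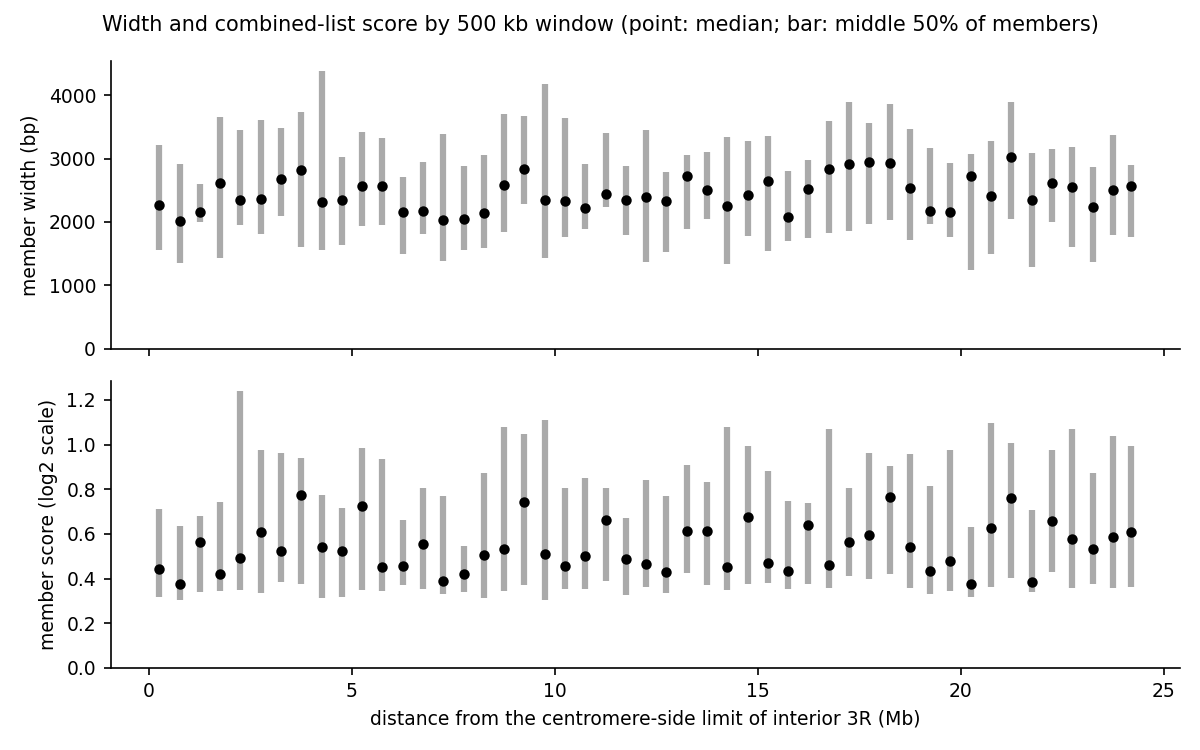
For each 500 kb window, by distance from the centromere-side limit (Mb), the point is the median and the bar the middle 50% of member width (bp, top) and of combined-list score (log2 scale, bottom). Window medians stay between 2017 and 3021 bp and between 0.38 and 0.77, and the bars of most windows overlap.

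Neighbouring members did not resemble each other in score. Spearman's rho between the score of a member and that of the next along the arm was 0.011, and 0.004 and -0.007 in the replicate lists; for widths it was 0.041, 0.044 and 0.001. Members far from any other cluster had a lower median score and width, but distance and score were only weakly related. Spearman's rho of the distance to the nearest cluster with score was -0.073, and -0.058 and -0.037 in the replicate lists. The nearest combined-list cluster of any width was at a median of 1997 bp. Where it was 20 kb or more away (84 members), the median score was 0.39 and the median width 1885 bp, against 0.56 and 2615 bp where it was under 1 kb (448 members). In the replicates the same classes had scores of 0.66 and 0.76 in replicate 1 and 0.71 and 0.79 in replicate 2. The class from 1 to 20 kb scored highest in replicate 2, at 0.85. On other arms in the combined list, the isolated and crowded classes scored 0.45 and 0.50 on interior 2L and 0.47 and 0.46 on 3L. Of the isolated members of 3R, 35.7% were in both replicates, against 64.5% of the crowded ones. On interior 2L these shares were 55.1% and 56.1% and on 3L 53.6% and 57.5%. The difference between arms was not tested, and the part in it of the narrower isolated members of 3R (1885 bp, against 2122 bp on 2L and 2116 bp on 3L) was not tested.

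The highest-scoring members found in both replicates lay in 8 windows and none stood alone: each of the 10 had another cluster within 5 kb. That holds for most members, since 32.0% of all had no other member within 5 kb, so it is no trait of the 10. The highest, from 3633838 to 3637566 (3729 bp), scored 2.31. Its counterparts scored 1.95 in replicate 1, where it ranked 21 of all clusters, and 2.65 in replicate 2, where it ranked 2. The next, from 22012872 to 22015732 (2861 bp), scored 2.27, with 1.89 in replicate 1 and 2.55 in replicate 2. It lies in the window with the fewest clusters of either replicate. The gaps beside it were 15291 bp on the low side and 4463 bp on the high side.

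A pair of the 10 lay in the window from 17000001 to 17500000. One ran from 17443240 to 17446608 with a score of 2.12 (1.91 in replicate 1 and 2.37 in replicate 2), 13 bp from its neighbour. The other ran from 17184158 to 17187870 with a score of 1.92 (1.92 and 2.05). Another pair shared the window from 3500001 to 4000000, namely the highest of all and the member from 3731928 to 3734966, which scored 1.93 (1.76 and 2.12). The member from 16458512 to 16462992, the widest of the 10 at 4481 bp, scored 2.08 (1.74 and 2.35). The member from 10955732 to 10958852 scored 1.88, with 2.01 in replicate 1 and 2.02 in replicate 2.

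The replicates disagreed most in rank on 2 of the 10. The member from 24159952 to 24163856 scored 2.06 and ranked 12 in replicate 2 and 197 in replicate 1, where its counterpart was 7348 bp wide, against 3234 bp in replicate 2. The member from 11066692 to 11070674 scored 1.95 and ranked 19 in replicate 2 and 496 in replicate 1, where its counterpart was 5729 bp, against 3766 bp. The last of the 10, from 19714032 to 19717924, scored 1.90 and ranked 97 in replicate 1 and 58 in replicate 2. Of the 10, 3 ranked within the first 50 of both replicates. They were chosen by score in a summary of these replicates, so high ranks are no separate support.

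By score alone, 2 of the 10 highest members were in neither replicate, and both were at or near the smallest member width of 1001 bp. The member from 10072582 to 10073586 (1005 bp) had the highest score of all, 3.24, rank 3 in the whole combined list. The member from 4533084 to 4534084 (1001 bp) scored 1.95. No cluster of replicate 1 or replicate 2 overlapped either. The other members found in neither list scored at most 0.74: from 16974972 to 16976152 the score was 0.74, from 2242084 to 2243356 it was 0.58, and from 25261396 to 25262412 it was 0.48. All 5 were under 1301 bp, the narrowest width in the replicate lists.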

How the data were processed

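RPD3 ChIP-seq was deposited as lists of enriched clusters, 1 for each ChIP sample and 1 combined; the inputs have no list and were not analysed here. The submitters' processing notes list Bowtie 0.12.7. Cluster caller, calling threshold and how the lists were combined: not given in the sources used here. The build is FlyBase release 5, per the file headers. The score deposited by the authors was read as log2, because as powers of 2 the 5 highest distinct combined scores were 9, 10, 11, 12 and 13 times 1 step. Depth is unknown.

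The region named as depleted was left out. The interior of each arm leaves out 2 Mb at the centromere and 1.5 Mb at the telomere end. Gaps run from a cluster's end to the next start. Windows of 500 kb take clusters by midpoint; the last, shorter one stays out of window summaries. SDs are over the 2 replicate lists. Correlations across clusters or windows are descriptive, clusters are not replicates, and no test across samples was run: with 2 samples an exact sign-flip test cannot give a two-sided p below 0.5. Named regions are the 10 highest members in both replicates, the 5 highest in neither, the 5 longest gaps, the dense block, and the 5 fullest and 5 emptiest windows; other named runs, gaps, stretches and windows were chosen after their values were seen. Members and definitions were chosen with earlier results of these data known. Functions were tested on simulated data. Python 3.11.15, numpy 2.4.6, pandas 2.3.3 and scipy 1.17.1 were used.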

Additional observations from a re-analysis of the deposited data

How the results depend on the processing

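Of 81 values under alternatives, for 13 results, 29 stayed within a limit and 52 moved. The limit was the SD of the replicates, 1.5 times for counts of deserts and blocks, and the Clopper-Pearson interval for the share in both replicates; rho of the replicates' counts has no such limit, and its 3 values are counted as moved. No difference from 2L and 3L or between the sides that exceeded the SD changed sign. The density ratio (1.01) and the side ratio (0.988) of the combined list were within the SD of 1, so this rule could not apply to them. Both crossed 1 under alternatives. The side ratio was 1.003 with clusters of 6000 bp or wider kept and 1.007 without those narrower than 1301 bp. Better-scoring 50% of the combined list: share in both replicates 98.7%, 25.04 members per Mb, density ratio to 2L and 3L 1.06, median gap 17854 bp, 54 deserts, variance over mean 1.87, centromere-side over telomere-side density 0.909, width difference 5 bp, score difference 0.017. With clusters of 6000 bp or wider kept: 63.4%, 60.2 per Mb, gap 4795 bp, 4 dense blocks and a width difference of 152 bp. Without combined clusters narrower than 1301 bp: 70.3%, 47.1 per Mb, density ratio 0.991, gap 7921 bp, 28 deserts, width difference 150 bp and score difference 0.057. With clusters under 500 bp apart joined: 46.1 per Mb, gap 9417 bp, variance over mean 1.99 and side ratio 0.957. The dense block was lost (0) in the better-scoring 50%, without narrow clusters, with joining, with a gap limit of 2.5 kb and in each replicate alone (0 and 0), and there were 6 with 10 kb. Deserts numbered 40 at 75 kb and 3 at 150 kb. With 250 kb, 1 Mb and shifted windows, rho of the replicates' counts was 0.818, 0.786 and 0.760, and rho of count with width 0.150, 0.142 and 0.151; with 1 Mb windows rho of count with score was 0.355. Each replicate alone gave 41.8 to 48.2 per Mb, a density ratio of 1.02 to 1.06, a gap of 7381 to 8366 bp, 33 to 35 deserts, a variance over mean of 2.27 to 2.66, a side ratio of 0.995 to 1.03, a width difference of 66 to 89 bp, a score difference of 0.012 to 0.027 and rho of count with score of -0.051 to 0.209 and with width of 0.094 to 0.103. Fewer or stricter clusters widen gaps by construction; the cause of the other shifts was not tested. No paired analysis was possible because neither input has a cluster list, which leaves a single group. Limits set by depth are unknown, since the files give no reads.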

Other observations

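The highest score among the 3R members was an exact tie. The member from 10072582 to 10073586 shared its score of 3.24 with 4 other clusters of the combined list, 2 on the heterochromatic scaffold 3RHet and 2 on the unplaced scaffolds U, each between 1003 and 1133 bp wide. None of these 5 overlapped a cluster of either replicate. Raised as a power of 2, that score was 11 times the step shared by the highest scores of the list. Over the whole combined list 22 clusters had a score that, as a power of 2, was a whole multiple of this step within 1e-06. Of the 1346 members this was the only one. Fractions of the step were not counted. The count thus does not set apart the other high member found in neither list, from 4533084 to 4534084.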
